A study of Oryza sativa Japonica Group with 24 samples.

Results

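In anthers of rice grown under short days (SD) or long days (LD), 150 genes differed between photoperiods in opposite directions at noon and before dawn. Their mRNA was lower in SD anthers than in LD anthers at 12:00 and higher in SD anthers than in LD anthers at 04:00, so the direction of the photoperiod difference turned round between noon and the end of the night. The genes were selected on those measured values. Counts were scaled to the library total (CPM, counts per 1000000), and the SD minus LD difference of log2(CPM + 1) was taken at both times. Among the 16484 loci with a mean of at least 5 CPM over the 24 libraries, of 55986 loci in all, the 150 with the highest smaller value of LD minus SD at 12:00 and SD minus LD at 04:00 were kept. The differences at 12:00 and 04:00 are therefore descriptions without a test. Tests were made only on libraries from 08:00, 16:00, 20:00, and 00:00, which entered the selection only through the mean level over the 24 libraries.

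The plants were wild type, the *japonica* variety 9522, in paddy fields. SD plants received 12 h of light a day, made by black cloth over the plants at the end of the afternoon, and LD plants received the natural day of about 14 h. Treatment ran from panicle initiation until sampling. The deposited design text gives LD as 14 h of dark, and the day length in the paper's methods was followed. Anthers at the first pollen mitosis were taken every 4 h, starting at 08:00 and ending at 04:00, with 2 biological replicates, which gave 12 groups and 24 RNA-seq libraries. The study counted 08:00 to 16:00 as light and 20:00 to 04:00 as dark. Each library is bulk RNA of whole anthers, so fewer cells of a type and less RNA per cell cannot be told apart.

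Many plant mRNAs rise and fall once a day, under the joint control of light and of the circadian clock. In the clock of rice, *OsCCA1* is a morning-expressed transcription factor, and *OsGI*, *OsTOC1*, and the *OsPRR* genes act later in the day. Day length is read against this clock, and in rice it sets flowering time and, in some lines, male fertility. The anther wall, with its inner layer the tapetum, feeds the pollen with sugars and lipids until the tapetum degenerates late in pollen development. Around the first mitosis pollen draws on imported sugar for energy and for starch. Of the 150 genes, 17 carry a description in the study's supplementary sheets and 43 carry a gene ontology (GO) term there, with 53 carrying either. Those sheets were available in part, and the other members are given by locus identifier alone.

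Library totals ranged from 18043740 to 27529649 counts, and 28171 to 29547 loci had at least 1 count. Across loci, replicates correlated in log2(CPM + 1) with a coefficient of 0.924 (SD 00:00) to 0.992 (SD 12:00). TMM factors, which correct for differences in RNA composition, ran from 0.823 to 1.10, with 1.08 and 1.10 at SD 12:00 and 0.914 and 0.823 at LD 12:00. The median SD minus LD difference of all 16484 loci was 0.21 at 12:00 and 0.19 at 04:00 on the scale of log2(CPM + 1). Clock genes also differed between photoperiods at the hours of the rule. *OsCCA1* had 477 and 512 CPM in SD anthers, against 71.5 and 71.4 CPM in LD anthers at 12:00, and 533 and 435 CPM in SD anthers, against 944 and 852 CPM in LD anthers at 04:00, the opposite directions to the members. *OsGI* was highest at 20:00 in SD anthers, with 850.4 and 864 CPM, and at 16:00 in LD anthers, with 1115 and 1087 CPM. Their part in the members' values was not tested. None of the 12 rhythm genes examined was a member. The tapetum genes *OsABCG15*, *OsLAP6*, and *HTH1* lay at 3.88 to 72.1, 75.2 to 1012, and 2.60 to 125 CPM in the 12 SD libraries, against 0.0473 to 1.63, 0.237 to 24.8, and 0.0947 to 2.32 CPM in the 12 LD libraries. The pollen phospholipase gene *OsMATL* went the other way, with 0 to 24.8 CPM in SD libraries and 16.8 to 87.4 CPM in LD libraries. Of 9 marker genes for the tapetum, pollen, anther wall, and green tissue, 7 had a higher mean in SD anthers at all 6 time points and 1, *OsMATL*, a lower mean at all of them. Their summed level was 2140.2 to 3783 CPM in SD libraries and 1015 to 1805 CPM in LD libraries. The paper's methods place all anthers at one stage, judged by anther length, and the sample labels give no stage. The part of these marker differences in the results that follow was not tested.

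The typical level of the members in each library is given by their median deviation, the log2(CPM + 1) of each gene minus its mean over the 24 libraries. Its values at 12:00 and 04:00 follow from the selection. At 12:00 this median was −0.80 and −0.93 in the SD libraries, against 0.69 and 0.44 in the LD libraries. At 04:00 it was 0.58 and 0.54 in the SD libraries, against −0.81 and −0.45 in the LD libraries. At 08:00 the medians overlapped, with 0.31 and −0.00 in SD anthers and −0.01 and 0.19 in LD anthers, and at 16:00 they lay close to 0, with 0.03 and −0.05 in SD anthers and −0.14 and −0.00 in LD anthers. One group split. At 20:00 the first SD library stood at 0.30 and the second at −0.69, with 0.29 and 0.36 in the LD libraries, and 73 members were at least 2-fold higher in the first SD library while none was 2-fold higher in the second. The median absolute difference between these 2 SD libraries was 0.97 over the members and 0.21 over all loci in log2(CPM + 1). Across loci the first correlated best with the second SD library of 04:00 (0.974) and the second with the first SD library of 00:00 (0.967), against 0.966 with each other. *OsMATL* had 10.8 and 3.05 CPM in the same SD libraries, against 32.2 and 42.9 CPM in the LD libraries of 20:00. Results for 20:00 are given with and without each of the SD libraries.

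**Figure D1:**
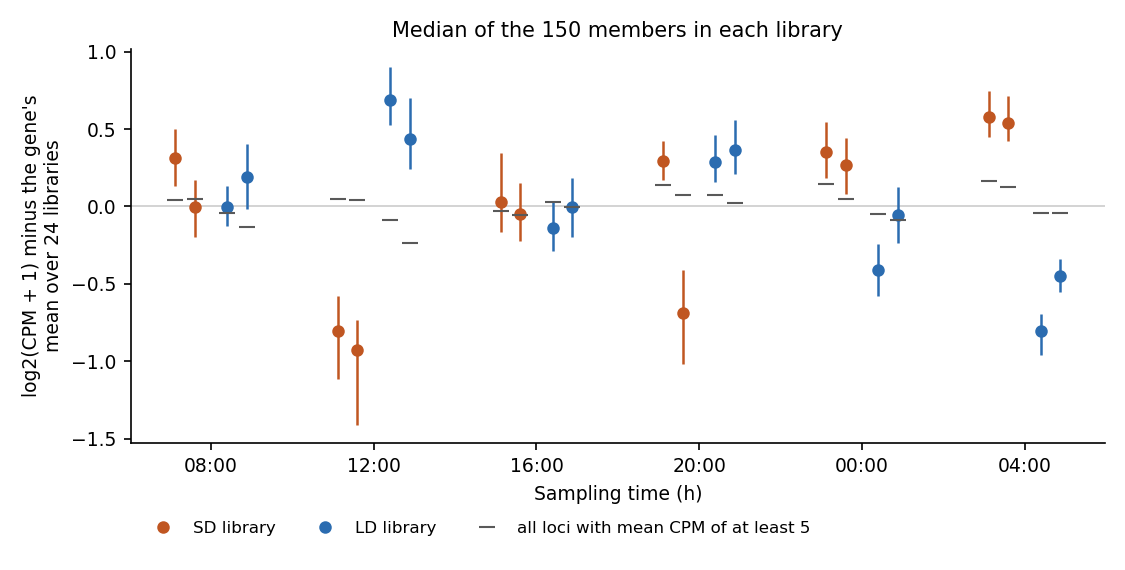
Median deviation of the 150 members in each of the 24 libraries (points) with the range between their quartiles (bars), in log2(CPM + 1) minus each gene's mean, by sampling time. Dashes mark the median of all 16484 loci. SD libraries lie at −0.80 and −0.93 at 12:00 and at 0.58 and 0.54 at 04:00, LD libraries at 0.69 and 0.44 and at −0.81 and −0.45, and the 2 SD libraries of 20:00 are apart.

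At 12:00 the SD minus LD difference of the members had a median of −1.46 and ran from −5.85 to −0.97, and at 04:00 it had a median of 1.14 and ran from 0.97 to 4.67. These are the selected values. The smaller of the pair was the one at 04:00 in 108 members and the one at 12:00 in 42, so the pre-dawn difference was the limiting one for most of them. The last members were LOC_Os01g16100, LOC_Os04g31050, and LOC_Os09g39190 at 0.969, 0.966, and 0.965, and the first genes outside were LOC_Os06g44200, LOC_Os07g36630, and LOC_Os07g22600, which all had 0.962. The members had a median of 20.4 CPM over the 24 libraries, with 5.10 to 1040 CPM as their range, and the 16484 loci had a median of 25.5 CPM. With TMM-scaled CPM all 150 were still lower in SD anthers at 12:00 (median −1.74, all loci −0.11) and higher at 04:00 (median 0.997, all loci 0.05), although the same rule on that scale kept 95 of the 150 genes.

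Within SD anthers the mean level was highest at 04:00 in 124 members (82.7%), against 31.6% of the 16484 loci, and lowest at 12:00 in 143 members, against 27.6% of loci. Within LD anthers it was highest at 12:00 in 108 members (72.0%), against 15.0% of loci, and lowest at 04:00 in 134 members, against 24.5% of loci. The next most frequent peak in LD anthers was 20:00, in 34 members. These hours are those of the rule, so they describe the set. The noon difference was made more by a loss in SD anthers than by a gain in LD anthers. The SD level at 12:00 was a median of −0.97 from the mean of the SD levels at 08:00, 16:00, 20:00, and 00:00, while the LD level at 12:00 was a median of 0.54 above the same mean in LD anthers, both in log2(CPM + 1). The noon loss in SD anthers was the larger of these for 119 members and the noon gain in LD anthers for 31. At 04:00 the SD level was a median of 0.50 above its mean at those 4 other times and the LD level a median of −0.67 from its own, and the fall in LD anthers was the larger part for 111 members.

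Replicates bore out these shapes to different degrees. In 87 members both SD libraries of 12:00 were below all 10 other SD libraries, which held for 14.0% of the 16484 loci. In 58 members both LD libraries of 12:00 were above all other LD libraries (5.96% of loci). Both SD libraries of 04:00 were above all other SD libraries in 58 members (6.28% of loci), and both LD libraries of 04:00 were below all other LD libraries in 68 (7.41% of loci). These counts use the libraries of the rule and are given as a description. All 4 statements held for 2 members, LOC_Os06g22070, which carries the GO term mitochondrion, and LOC_Os06g05740, which was picked out after its values were seen. LOC_Os06g22070 had 25.4 and 22.1 CPM at 12:00 in SD anthers, against 84.3 and 78.3 CPM in LD anthers, and at 04:00 had 79.96 and 75.95 CPM in SD anthers, against 25.3 and 30.8 CPM in LD anthers. The groups were apart by more than their replicates at both hours.

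**Figure D2:**
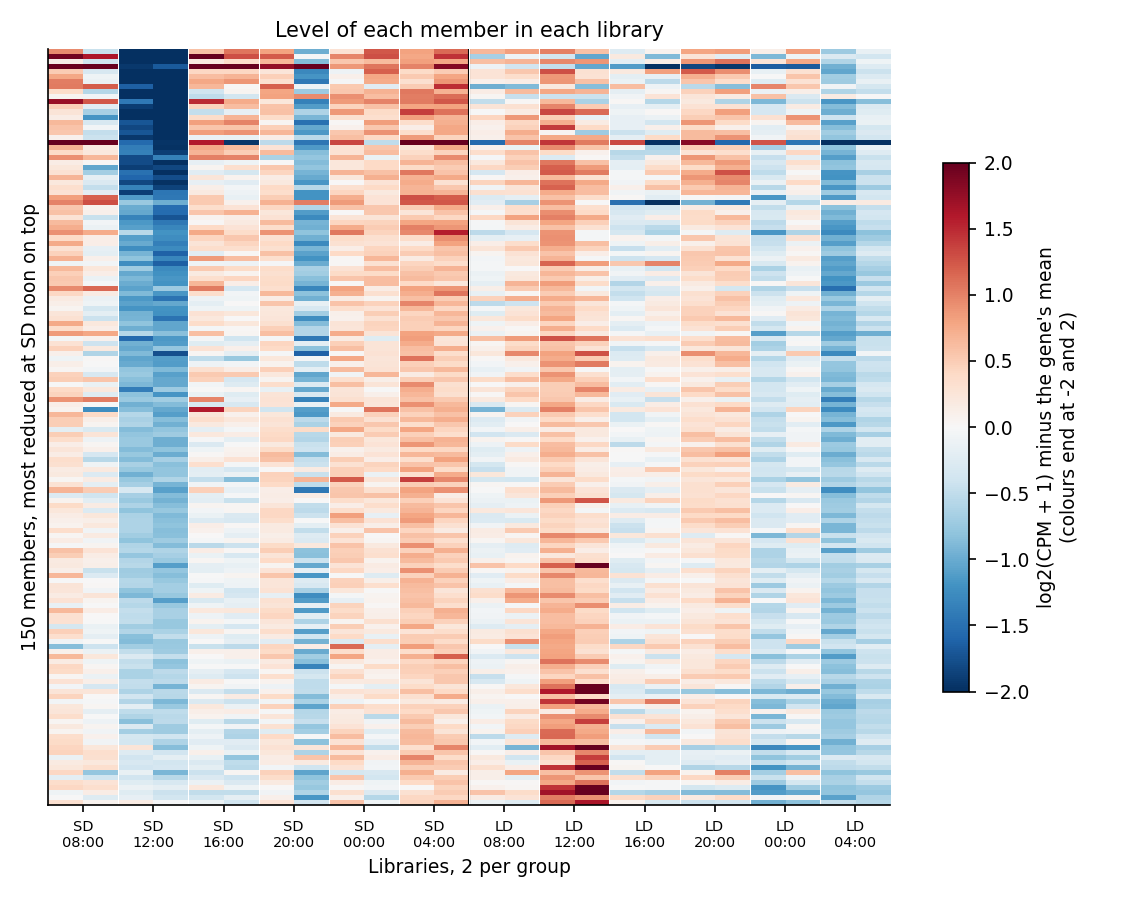
Level of each member (rows) in each library (columns, 2 per group, SD on the left), as log2(CPM + 1) minus the gene's mean over the 24 libraries. Rows run from the members most reduced at noon within SD anthers to the least, and the column pairs of SD 12:00 and LD 04:00 are blue in nearly every row, as is the second SD library of 20:00.

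At one end of the set were genes whose mRNA nearly vanished at noon in SD anthers. LOC_Os08g15545 had 0.202 and 0 CPM in SD anthers, against 71.9 and 53.5 CPM in LD anthers at 12:00. The SD values stand for 4 and 0 counts, and a count of 0 in that library allows up to 0.160 CPM. At every other time its SD libraries held 17.5 to 84.5 CPM and its LD libraries 20.8 to 63.9 CPM, so the noon SD libraries were set apart from the other 22. LOC_Os11g46020, with the GO term DNA metabolic process, had 0.607 and 0.428 CPM in SD anthers, against 18.6 and 11.2 CPM in LD anthers at 12:00, and 23.9 to 104 CPM in the other SD libraries. LOC_Os03g03680, described as a transporter family protein, had 0.911 and 0.909 CPM in SD anthers, against 63.7 and 60.2 CPM in LD anthers at 12:00, and 17.2 to 57.4 CPM in the other SD libraries. A member annotated as a family 17 glycosyl hydrolase, LOC_Os01g71810, had 0.557 and 0.855 CPM in SD anthers, against 3.24 and 1.89 CPM in LD anthers. Enzymes of this family cleave beta-glucans, and this member is described further with the tests. A pair of abundant members kept a remnant at noon. LOC_Os08g15505 had 94.7 and 53.3 CPM in SD anthers, against 1513 and 763 CPM in LD anthers, and LOC_Os11g41360 had 44.3 and 34.2 CPM in SD anthers, against 522 and 351 CPM in LD anthers. In all, 70 members had a noon level within SD anthers lower by at least 1 in log2(CPM + 1) than their mean at 08:00, 16:00, 20:00, and 00:00, and 7 had a mean under 1 CPM at noon. *OsMATL* was also lowest in these libraries, with 0.152 and 0 CPM in SD anthers and 72.5 and 72.1 CPM in LD anthers at 12:00, and its part in these values was not tested.

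At the other end were genes with a peak at noon in LD anthers, and here the replicates of LD 12:00 differed. LOC_Os02g08490, with GO terms for protein metabolism and nucleotide binding, had 42.1 and 37.1 CPM in SD anthers, against 163 and 2245 CPM in LD anthers at 12:00. Its other LD libraries held 22.7 to 75.3 CPM and all its SD libraries 32.6 to 71.5 CPM, so the height of this peak rests on the second LD library. LOC_Os01g55270 had 22.5 and 23.8 CPM in SD anthers, against 108 and 504 CPM in LD anthers, again with the second LD library on top. LOC_Os08g41390 had 242 and 248 CPM in SD anthers, against 863 and 1752 CPM in LD anthers, and in the other LD libraries 137 to 393 CPM. The neighbours LOC_Os09g30412 and LOC_Os09g30418 both peaked there. LOC_Os09g30412 had 615 and 544 CPM in SD anthers, against 1207 and 1706 CPM in LD anthers, and LOC_Os09g30418 had 135 and 61.8 CPM in SD anthers, against 362 and 496 CPM in LD anthers. LOC_Os09g27830, with GO terms for biological regulation, had 68.2 and 54.9 CPM in SD anthers, against 279 and 394 CPM in LD anthers. In each of these genes both LD libraries were above both SD libraries, as held for all 150. A noon gain of at least 1 in log2(CPM + 1) within LD anthers was found in 18 members. The libraries of LD 12:00 were 2-fold apart in 7 members, of which 4 (LOC_Os02g08490, LOC_Os01g55270, LOC_Os06g15810, and LOC_Os08g41390) were higher in the second and 3 (LOC_Os09g38650, LOC_Os01g41070, and LOC_Os05g05690) in the first. LOC_Os02g08490, LOC_Os01g55270, LOC_Os09g30418, LOC_Os09g27830, LOC_Os06g15810, and LOC_Os05g05690 were picked out after their values were seen.

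**Figure D3:**
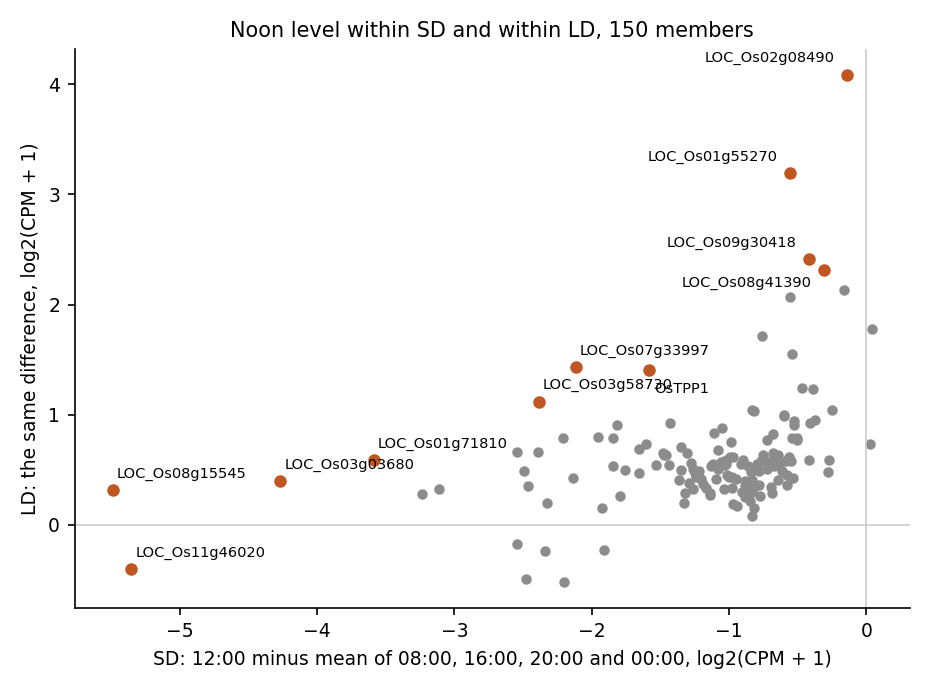
Noon level of each of the 150 members within SD anthers (horizontal) and within LD anthers (vertical), as log2(CPM + 1) at 12:00 minus the mean of 08:00, 16:00, 20:00, and 00:00. Points far to the left, such as LOC_Os08g15545, lost their mRNA at noon in SD anthers, and points at the top right, such as LOC_Os02g08490, gained it at noon in LD anthers.

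A change of at least 1 in log2(CPM + 1) at noon within both photoperiods, down in SD anthers and up in LD anthers, was found in 3 members. They were LOC_Os07g33997, LOC_Os03g58730, and *OsTPP1*. LOC_Os07g33997, with the GO terms ribosome and translation, had the highest rule value of the set, 2.99. It had 12.5 and 9.14 CPM at 12:00 in SD anthers, against 105 and 80.8 CPM in LD anthers, and at 04:00 had 207 and 176 CPM in SD anthers, against 7.82 and 5.47 CPM in LD anthers. Elsewhere its replicates were far apart, with 117 and 9.34 CPM in SD anthers, against 98.4 and 6.58 CPM in LD anthers at 16:00 and 26.6 and 13.5 CPM in SD anthers, against 139 and 12.4 CPM in LD anthers at 20:00, so the spread between replicates there exceeded any difference between photoperiods. LOC_Os03g58730 was next, with a rule value of 1.84. It had 1.01 and 1.28 CPM at 12:00 in SD anthers, against 26.8 and 23.2 CPM in LD anthers, and at 04:00 had 27.8 and 22.4 CPM in SD anthers, against 4.62 and 8.37 CPM in LD anthers, with the replicates closer to each other than to the other photoperiod. *OsTPP1* encodes a trehalose-6-phosphate phosphatase, an enzyme that removes the sugar signal trehalose-6-phosphate. It had 24.2 and 20.5 CPM at 12:00 in SD anthers, against 77.8 and 41.04 CPM in LD anthers, and at 04:00 had 99.5 and 99.1 CPM in SD anthers, against 46.1 and 46.9 CPM in LD anthers. Its second LD library of 12:00 was thus below both LD libraries of 04:00. Without the first LD library of 12:00, or with TMM-scaled CPM, the rule did not keep *OsTPP1*.

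The 20 genes of highest rule value, 2.99 to 1.38, were mostly locus identifiers with no description. LOC_Os03g43730 had 2.02 and 1.44 CPM at 12:00 in SD anthers, against 8.88 and 7.34 CPM in LD anthers, and at 04:00 had 15.1 and 14.2 CPM in SD anthers, against 1.99 and 4.09 CPM in LD anthers. LOC_Os09g38650 had 2.98 and 1.66 CPM at 12:00 in SD anthers, against 15.9 and 5.92 CPM in LD anthers, and at 04:00 had 21.2 and 24.5 CPM in SD anthers, against 3.79 and 4.99 CPM in LD anthers. In both genes the LD mean was highest at 12:00, and LOC_Os09g38650 differed 2-fold between its LD libraries of 12:00. LOC_Os01g05585 had 24.99 and 15.1 CPM at 12:00 in SD anthers, against 169 and 149 CPM in LD anthers, and at 04:00 had 150.1 and 107 CPM in SD anthers, against 31.1 and 45.7 CPM in LD anthers. LOC_Os11g12470 had 6.48 and 5.40 CPM at 12:00 in SD anthers, against 22.9 and 18.6 CPM in LD anthers, and at 04:00 had 30.8 and 28.4 CPM in SD anthers, against 6.07 and 10.6 CPM in LD anthers. Their replicates were closer to each other than to the other photoperiod at both hours. Of the ribosomal GO members, LOC_Os06g07896 had 4.30 and 3.69 CPM at 12:00 in SD anthers, against 18.1 and 12.96 CPM in LD anthers, and at 04:00 had 13.2 and 14.6 CPM in SD anthers, against 2.96 and 6.51 CPM in LD anthers, and LOC_Os12g04160 had 8.30 and 8.66 CPM at 12:00 in SD anthers, against 27.01 and 22.2 CPM in LD anthers, and at 04:00 had 37.4 and 29.9 CPM in SD anthers, against 9.38 and 13.9 CPM in LD anthers. LOC_Os08g20410 had 2.93 and 2.46 CPM at 12:00 in SD anthers, against 17.7 and 13.6 CPM in LD anthers, and at 04:00 had 18.1 and 19.1 CPM in SD anthers, against 4.18 and 7.75 CPM in LD anthers.

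Genes of sugar breakdown and sugar signalling were found among the annotated members. The GO term carbohydrate metabolic process was carried by 6 members, namely 2 pyruvate kinase genes, *OsTPP1* and a further trehalose phosphatase gene, the family 17 glycosyl hydrolase gene, and a glycerophosphoryl diester phosphodiesterase gene. That is 14.0% of the 43 members with a GO term, beside 3.95% of the 2735 genes with one, and the difference was not tested. The study's sheets were available in part, and even the broad term catalytic activity held 4.42% of these genes. The shares are therefore not a full baseline, and no excess is read from them. The GO lists came from genes the study had called between photoperiods, or had placed in co-expression modules correlated with photoperiod. Both used these same samples, so the lists are not an independent sign of a theme. Pyruvate kinase carries out the last step of glycolysis, and its gene LOC_Os03g46910 had 19.7 and 13.4 CPM at 12:00 in SD anthers, against 62.6 and 51.3 CPM in LD anthers, and at 04:00 had 57.3 and 68.3 CPM in SD anthers, against 22.4 and 28.9 CPM in LD anthers. The other pyruvate kinase gene, LOC_Os11g10980, had 57.02 and 45.02 CPM at 12:00 in SD anthers, against 214 and 203 CPM in LD anthers, and at 04:00 had 194 and 180.1 CPM in SD anthers, against 75.9 and 110.4 CPM in LD anthers. Phosphoglycerate mutase acts earlier in glycolysis, and LOC_Os05g40420, the cofactor-independent form, had 299 and 262 CPM at 12:00 in SD anthers, against 674 and 558 CPM in LD anthers, and at 04:00 had 721 and 610.0 CPM in SD anthers, against 299 and 354 CPM in LD anthers. LOC_Os04g46760, the further trehalose phosphatase gene, had 8.95 and 5.67 CPM at 12:00 in SD anthers, against 19.98 and 19.4 CPM in LD anthers, and at 04:00 had 20.6 and 18.6 CPM in SD anthers, against 6.66 and 9.51 CPM in LD anthers. In these 3 glycolytic genes the replicates of each group lay closer together than the groups did, at both hours of the rule. The pyruvate kinase genes and LOC_Os07g41150 are named here for their GO term, after their values were seen. Of the 6 GO members, *OsTPP1* and LOC_Os01g71810 were called between SD and LD anthers at other hours (adjusted p below 0.05 and at least 2-fold). LOC_Os01g71810 reached the limit of 5 CPM through its SD libraries, which averaged 16.4 CPM, against 2.02 CPM over the LD libraries. Its higher SD levels at those hours were therefore favoured by the selection, and its calls are to be read as descriptions. LOC_Os03g46910, LOC_Os11g10980, LOC_Os04g46760, and LOC_Os07g41150 were called at none of 08:00, 16:00, 20:00, and 00:00, and neither was LOC_Os05g40420. At 16:00 no gene at all was called, so that hour could not give a call. LOC_Os07g41150 was higher in SD anthers there (1.21 ± 0.15 on the log2 scale, adjusted p = 0.0624 by edgeR). The others named here had log2 fold changes of −0.07 to 0.73 at 16:00.

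The transport list held 3 of the 17 described members, and 7.56% of the 2698 genes with a description. The transcription factor list held 1, and 3.97% of those genes. LOC_Os03g03680 is described above. LOC_Os04g44540, a mitochondrial carrier protein gene, had 10.5 and 9.57 CPM at 12:00 in SD anthers, against 29.2 and 31.7 CPM in LD anthers, and at 04:00 had 40.1 and 25.6 CPM in SD anthers, against 12.5 and 15.97 CPM in LD anthers. LOC_Os03g02670, a transporter family gene, had 6.63 and 4.28 CPM at 12:00 in SD anthers, against 24.5 and 19.6 CPM in LD anthers, and at 04:00 had 23.96 and 25.6 CPM in SD anthers, against 9.18 and 15.4 CPM in LD anthers. To these can be added *OsMTP9*, a manganese transporter of the cation diffusion family, which was among the first by rule value and had 37.5 and 30.9 CPM at 12:00 in SD anthers, against 148 and 118 CPM in LD anthers, and at 04:00 had 148 and 149 CPM in SD anthers, against 39.01 and 59.4 CPM in LD anthers. The transcription factor list held 1 member, the MADS-box gene *OsMADS47*, which had 16.4 and 16.3 CPM at 12:00 in SD anthers, against 67.01 and 54.9 CPM in LD anthers, and at 04:00 had 53.3 and 59.4 CPM in SD anthers, against 22.6 and 30.7 CPM in LD anthers. None of these 5 genes was called at 08:00, 16:00, 20:00, or 00:00, but at 16:00 no gene at all was called. LOC_Os03g02670 was higher in SD anthers at 16:00 (1.24 ± 0.13 on the log2 scale, adjusted p = 0.0624 by edgeR). The others of these genes had log2 fold changes of −0.02 to 0.73 there. The lists for chaperones, protein kinases, calcium, cell wall, lipid, photosynthesis, hormones, ubiquitin, redox, RNA and translation, defence, and transposons matched no member, but they are word searches of descriptions that 17 of the 150 members carry. By GO term, 2 members had kinase activity (LOC_Os03g46910, a pyruvate kinase gene, and LOC_Os10g10540), 5 members were assigned to the ribosome (LOC_Os07g33997, LOC_Os06g07896, LOC_Os12g04160, LOC_Os03g51510, and LOC_Os04g51630), and 3 to motor activity (LOC_Os12g39980, LOC_Os12g42160, and LOC_Os02g56540). Of the 43 members with a GO term these make 4.65%, 11.6%, and 6.98%, beside 3.77%, 4.46%, and 1.68% of the 2735 genes with one. The shares rest on few members and on sheets available in part, and were not tested. These members were grouped after their values were seen. The ribosomal member LOC_Os04g51630 had 158 and 135 CPM at 12:00 in SD anthers, against 337 and 259 CPM in LD anthers, and at 04:00 had 377 and 356 CPM in SD anthers, against 148 and 189.6 CPM in LD anthers. The motor member LOC_Os12g39980 had 6.43 and 8.93 CPM at 12:00 in SD anthers, against 51.9 and 45.1 CPM in LD anthers, and at 04:00 had 38.01 and 25 CPM in SD anthers, against 9.77 and 15.02 CPM in LD anthers. Neither group had a member called at the 4 other times, of which 16:00 had no call for any gene.

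Some of the most abundant members had the same course. LOC_Os01g05650 had 242 and 182 CPM at 12:00 in SD anthers, against 1563 and 1564 CPM in LD anthers, and at 04:00 had 1663 and 1263 CPM in SD anthers, against 534 and 718 CPM in LD anthers. At 16:00 it had 853 and 843 CPM in SD anthers, against 816 and 1212 CPM in LD anthers, and the groups were close. LOC_Os01g42110 had 165 and 113 CPM at 12:00 in SD anthers, against 1218 and 872 CPM in LD anthers, and at 04:00 had 1059.8 and 1077 CPM in SD anthers, against 335 and 501 CPM in LD anthers. LOC_Os09g31486 had 166 and 132 CPM at 12:00 in SD anthers, against 497 and 451 CPM in LD anthers, and at 04:00 had 312 and 320.2 CPM in SD anthers, against 141 and 173 CPM in LD anthers. In each of these genes the second SD library of 20:00 was the lower one, with 1014 and 635 CPM for LOC_Os01g05650, 915 and 283 CPM for LOC_Os01g42110, and 266 and 131 CPM for LOC_Os09g31486 in the first and second SD library. CPM are not corrected for transcript length, so these levels are compared between groups and not between genes. Of the other abundant members, LOC_Os09g30412 and LOC_Os08g41390 mainly rose at noon in LD anthers. Their noon levels within SD anthers were 0.04 and −0.31 from the mean of 08:00, 16:00, 20:00, and 00:00. Within LD anthers they were 1.78 and 2.31 above that mean, all in log2(CPM + 1).

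Whether the turn between noon and pre-dawn reached into the hours between was tested on the 4 libraries of each other time point. Genes were called at a Benjamini-Hochberg adjusted p below 0.05 over all genes tested, and a change of 2-fold or more, by the quasi-likelihood test of edgeR. Changes are given as log2 fold change ± standard error. Positive values are higher in SD anthers. Where a library is left out of a fit, the lone library of its group is assumed to vary like the other group. All 150 members were abundant enough to be tested at every hour, with 23316 to 23487 genes tested. These fits use TMM scaling, so their fold changes differ slightly from differences of log2(CPM + 1).

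At 08:00, 7 members were up-regulated in SD anthers and none was down-regulated. By DESeq2 the counts were 7 (6.40% of genes) and 1 (9.47% of genes). Over all genes edgeR called 7.30% up and 10.4% down, so the share of members called was below the background in both directions. The median log2 fold change of the members was −0.06, against 0.01 over all genes, and 66 of 150 were positive. The sign of that median was not stable, with −0.24 without the first SD library, 0.10 without the second, −0.23 without the first LD library, and 0.08 without the second. Both SD libraries were above both LD libraries in 44 members (45.3% of the 16484 loci) and below in 26 (26.8% of loci). The 7 genes were LOC_Os01g41070, LOC_Os01g71810, LOC_Os11g46020, LOC_Os09g38650, *OsTPP1*, LOC_Os03g43730, and LOC_Os07g40740. LOC_Os01g41070, with the GO term RNA binding, had 9.56 and 10.9 CPM in SD anthers, against 1.63 and 1.80 CPM in LD anthers (2.44 ± 0.27 on the log2 scale, adjusted p = 0.00145 by edgeR). LOC_Os11g46020 had 95.5 and 76.3 CPM in SD anthers, against 14.9 and 22.8 CPM in LD anthers (2.05 ± 0.26 on the log2 scale, adjusted p = 0.00264 by edgeR). The groups did not overlap in either gene. LOC_Os01g71810 had 22.1 and 24.2 CPM in SD anthers, against 4.50 and 3.55 CPM in LD anthers (2.40 ± 0.21 on the log2 scale, adjusted p = 0.000582 by edgeR), and *OsTPP1* had 83.4 and 102 CPM in SD anthers, against 35.1 and 25.8 CPM in LD anthers (1.49 ± 0.20 on the log2 scale, adjusted p = 0.00332 by edgeR). These genes of glucan cleavage and trehalose metabolism were thus higher in SD anthers in the morning, the reverse of noon. LOC_Os09g38650 had 34.5 and 24.4 CPM in SD anthers, against 6.62 and 9.98 CPM in LD anthers (1.69 ± 0.28 on the log2 scale, adjusted p = 0.00714 by edgeR). LOC_Os03g43730 had 10.6 and 13.9 CPM in SD anthers, against 4.40 and 4.78 CPM in LD anthers (1.29 ± 0.25 on the log2 scale, adjusted p = 0.0115 by edgeR), and LOC_Os07g40740 had 626 and 558 CPM in SD anthers, against 230.2 and 261 CPM in LD anthers (1.14 ± 0.22 on the log2 scale, adjusted p = 0.0128 by edgeR). Without the first SD library of 08:00 the counts were 8 up (9.65% of genes) and 9 down (13.8% of genes), again no higher a share than over all genes. For 3 of the 7 genes, LOC_Os01g71810, LOC_Os01g41070, and LOC_Os03g43730, the limit of 5 CPM on the mean was reached through the SD libraries. They averaged 16.4, 6.38, and 8.14 CPM over the 12 SD libraries, against 2.02, 3.98, and 4.94 CPM over the 12 LD libraries. Since they are lower in SD anthers at 12:00 by the rule, SD levels above LD levels at other hours were favoured in them by the selection, and their tests here and at later hours are to be read as descriptions.

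At 16:00 no member was called, and no gene at all was called by edgeR (0% up and 0% down of 23466 genes), with a smallest adjusted p of 0.0624. At an unadjusted p below 0.05 there were 53 members and 7275 genes, and DESeq2 called 12 members up (4.20% of genes) and 1 down (2.58% of genes). Without the first LD library of 16:00, edgeR called 12 up (4.12% of genes) and 4 down (3.29% of genes). The median log2 fold change of the members was 0.13, against 0.00 over all genes, with 0.02 without the first LD library, 0.26 without the second, and 0.07 without the first SD library. Both SD libraries were above both LD libraries in 60 members (28.7% of loci) and below in 40 (38.5% of loci). The largest fold change was again that of LOC_Os01g71810, with 29.7 and 25.7 CPM in SD anthers, against 1.72 and 0.426 CPM in LD anthers (4.72 ± 0.54 on the log2 scale, adjusted p = 0.0624 by edgeR). *OsTPP1* had 59.9 and 43.8 CPM in SD anthers, against 13.8 and 8.19 CPM in LD anthers (2.28 ± 0.29 on the log2 scale, adjusted p = 0.0624 by edgeR). In both genes the SD libraries were well above the LD libraries, although the adjusted p missed the threshold.

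At 20:00 the members leaned the other way. Their median log2 fold change was −0.52, against 0.00 over all genes, and 19 of 150 were positive. In 5 members the limit of 5 CPM on the mean was reached through the LD libraries. They were LOC_Os06g15810, LOC_Os11g31740, LOC_Os11g31950, LOC_Os09g37580, and LOC_Os02g03360, all lower in SD anthers here (−0.40 to −1.29 on the log2 scale). Their part in this lean is to be read as a description. Both SD libraries were below both LD libraries in 64 members (26.8% of loci) and above in 13 (39.8% of loci). Only 2 members were called up (1.23% of genes tested) and 1 down (3.76% of genes). The lean depended on the split between the SD libraries. With the second SD library alone, 83 members were called down (9.61% of genes in that fit) and 2 up (3.30% of genes), at a median of −1.13. With the first SD library alone, 1 was called down (3.09% of genes) and 4 up (0.719% of genes), at a median of −0.13. DESeq2 on all 4 libraries called 11 down (5.68% of genes) and 3 up (2.08% of genes). LOC_Os01g71810 had 18.9 and 22.6 CPM in SD anthers, against 0.663 and 0.540 CPM in LD anthers (5.06 ± 0.27 on the log2 scale, adjusted p = 0.00310 by edgeR), and *OsTPP1* had 67.4 and 85.1 CPM in SD anthers, against 20.9 and 14.8 CPM in LD anthers (2.06 ± 0.22 on the log2 scale, adjusted p = 0.0143 by edgeR). Their SD libraries did not show the split of the other members. LOC_Os06g21710 was the member called down, with 3.04 and 2.65 CPM in SD anthers, against 10.5 and 8.36 CPM in LD anthers (−1.77 ± 0.25 on the log2 scale, adjusted p = 0.0239 by edgeR), and its SD libraries were alike too.

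At 00:00 the members already leaned as they did at 04:00. Their median log2 fold change was 0.46, against 0.04 over all genes, and 137 of 150 were positive. Without the first LD library the median was 0.27 and without the second 0.65. Both SD libraries were above both LD libraries in 109 members, against 38.5% of loci, and below in 1, against 17.9% of loci. Few differences passed the test, with 1 member called up (0.753% of genes) and none down (0.804% of genes). At an unadjusted p below 0.05 there were 41 members and 4610 genes. DESeq2 called 12 members up (2.86% of genes) and none down (4.40% of genes). The 2 SD libraries of 00:00 had the lowest correlation of any group, 0.924 across loci, and without the second of them 17 members were called up (4.89% of genes) and none down (10.5% of genes). Without the second LD library 6 were called up (1.50% of genes) and none down (3.60% of genes), and without the first LD library 2 up (1.37% of genes) and none down (4.83% of genes). The gene called in the fit of all 4 libraries was LOC_Os01g71810, with 9.86 and 11.4 CPM in SD anthers, against 0.887 and 0.858 CPM in LD anthers (3.47 ± 0.34 on the log2 scale, adjusted p = 0.0165 by edgeR). LOC_Os09g38650 came next by adjusted p, with 18.3 and 20.3 CPM in SD anthers, against 4.77 and 7.01 CPM in LD anthers (1.58 ± 0.30 on the log2 scale, adjusted p = 0.0587 by edgeR). In SD anthers LOC_Os07g40740 had 689.7 and 454 CPM, against 147 and 217 CPM in LD anthers (1.51 ± 0.34 on the log2 scale, adjusted p = 0.0800 by edgeR).

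**Figure D4:**
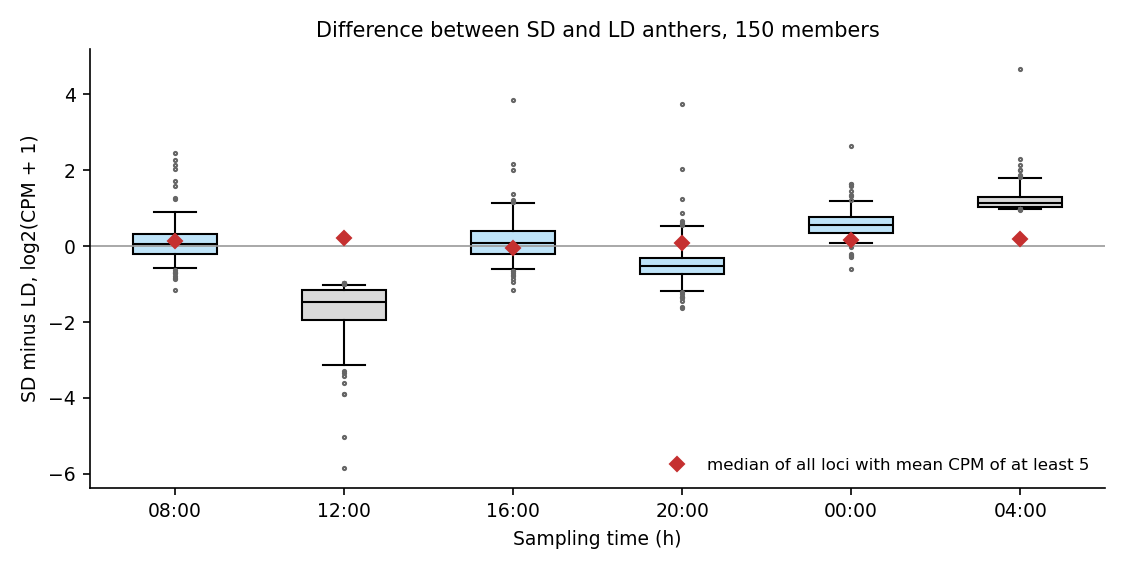
SD minus LD difference of log2(CPM + 1) for the 150 members at each sampling time. Boxes span the quartiles, whiskers all but the outermost members at each end, and dots the members beyond. Grey boxes are the hours used for selection, and diamonds mark the median of all 16484 loci. The member median is −1.46 at 12:00, −0.52 at 20:00, 0.57 at 00:00, and 1.14 at 04:00, and near 0 at 08:00 and 16:00.

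Over the 4 time points jointly, in a fit of their 16 libraries, 5 members were up-regulated in SD anthers (5.30% of 24907 genes) and none was down-regulated (8.23% of genes). DESeq2 also called 5 up (5.07% of genes) and none down (7.97% of genes). The members' median log2 fold change was 0.01, as it was over all genes. LOC_Os01g71810 had the largest fold change of the members (3.91 ± 0.20 on the log2 scale, adjusted p = 4.97e-06 by edgeR), with the limit given at 08:00 that the selection favoured this direction in it. Its 8 SD libraries held 9.86 to 29.7 CPM, against 0.426 to 4.50 CPM in the 8 LD libraries, while at 12:00 the order turned, as given above. *OsTPP1* held 43.8 to 102 CPM in SD libraries, against 8.19 to 36.4 CPM in LD libraries (1.66 ± 0.14 on the log2 scale, adjusted p = 5.15e-05 by edgeR). LOC_Os11g46020 held 23.9 to 104 CPM in SD libraries, against 12.5 to 29.1 CPM in LD libraries (1.56 ± 0.24 on the log2 scale, adjusted p = 0.000421 by edgeR). The ranges were apart in LOC_Os01g71810 and *OsTPP1* and overlapped in LOC_Os11g46020. The others were LOC_Os09g38650 (1.12 on the log2 scale, adjusted p = 0.00419 by edgeR) and LOC_Os07g40740 (1.03 on the log2 scale, adjusted p = 0.00210 by edgeR). In these 5 genes the mean level at 12:00 was lower in SD anthers, as the rule required, although the level over the 4 other times was higher there.

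**Figure D5:**
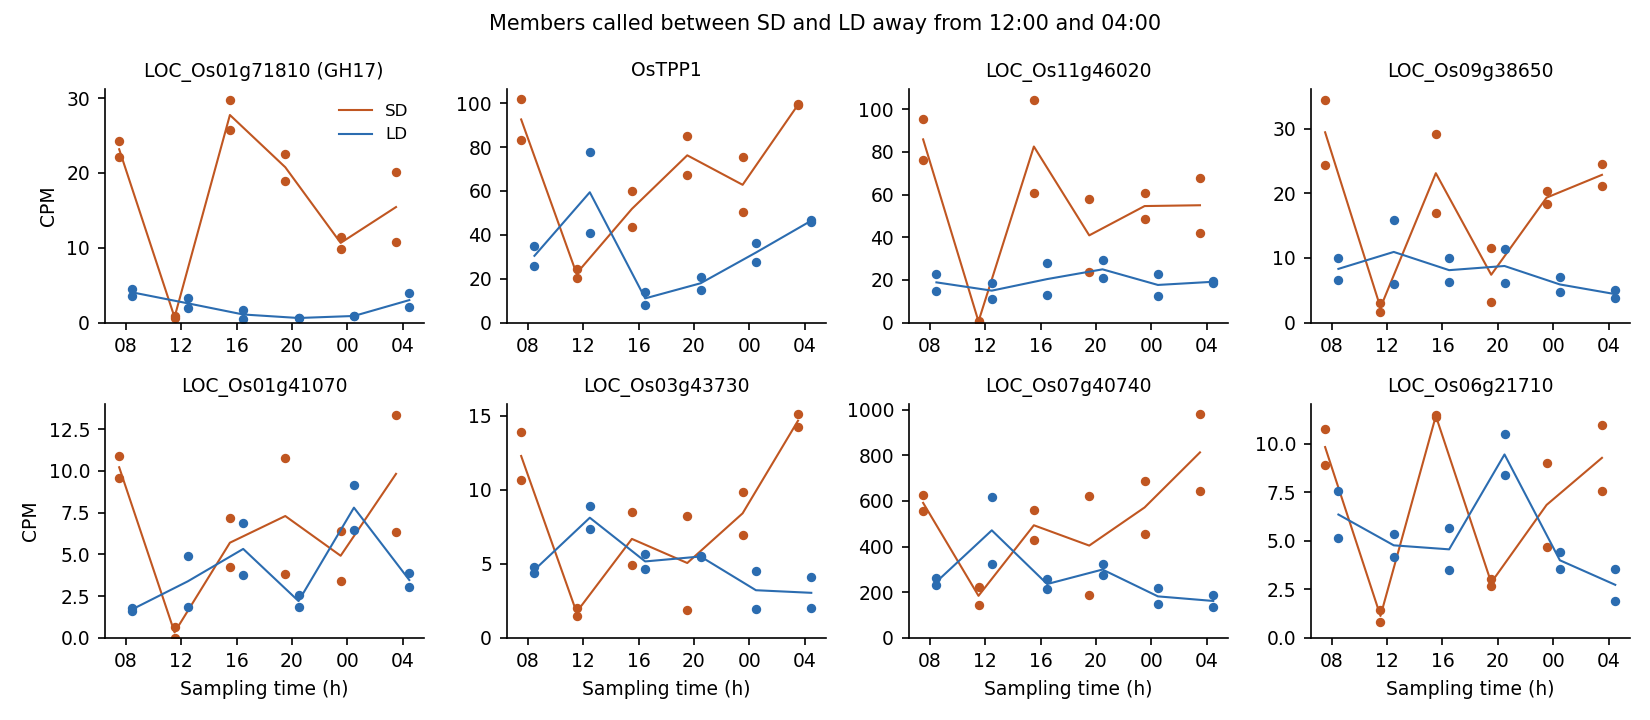
CPM of the 8 members called between SD and LD anthers in at least 1 of the tests away from 12:00 and 04:00, by sampling time. Points are libraries, lines join the means of the 2 replicates, and SD points sit left of LD points at each time. LOC_Os01g71810 and OsTPP1 are higher in SD anthers at 08:00, 16:00, 20:00, and 00:00 and lower at 12:00, and LOC_Os06g21710 is lower in SD anthers at 20:00.

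Light against dark was compared within each photoperiod in the same fit, as the mean of 08:00 and 16:00 against the mean of 20:00 and 00:00. In SD anthers 1 member was higher in the light (0.622% of genes) and none in the dark (0.277% of genes). The gene was LOC_Os06g21710, with 10.8 and 8.88 CPM at 08:00 and 11.5 and 11.4 CPM at 16:00, against 3.04 and 2.65 CPM at 20:00 and 9.0 and 4.69 CPM at 00:00 (1.35 ± 0.24 on the log2 scale, adjusted p = 0.0158 by edgeR). Without the first SD library of 20:00 there were 7 members higher in the light (0.773% of genes) and 2 in the dark (0.276% of genes). Without the second SD library of 00:00 there were 1 (3.14% of genes) and 3 (0.829% of genes), and the call was lost without the second SD library of 20:00, the first of 08:00, or the second of 16:00. In LD anthers 1 member was higher in the light (0.731% of genes) and none in the dark (0.181% of genes). It was LOC_Os01g71810, with 4.50 and 3.55 CPM at 08:00 and 1.72 and 0.426 CPM at 16:00, against 0.663 and 0.540 CPM at 20:00 and 0.887 and 0.858 CPM at 00:00 (1.55 ± 0.31 on the log2 scale, adjusted p = 0.0270 by edgeR). That call was lost when any of 7 libraries was left out, namely both SD libraries of 16:00, both LD libraries of 08:00, and the first LD library of 16:00, 20:00, or 00:00. No member was called for a difference of the light effect between photoperiods, where 0.00401% of genes were called with a larger and 0.189% with a smaller light effect in SD anthers. DESeq2 called 1 member in each direction (0.565% and 0.526% of genes). LOC_Os08g41390 and LOC_Os02g08490, with their noon peak in LD anthers, passed the adjusted p in the same contrast, higher in the light in LD anthers, without reaching 2-fold (0.98 ± 0.12 on the log2 scale, adjusted p = 0.00108 by edgeR and 0.96 ± 0.14 on the log2 scale, adjusted p = 0.00369 by edgeR). Both were named for their noon peak.

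The opposite choice, the 150 genes of highest smaller value of SD minus LD at 12:00 and LD minus SD at 04:00, had 2 called up and 16 called down in SD anthers at 08:00, beside 7.30% and 10.4% of all genes. At 00:00 it had 0 up and 7 down, beside 0.753% and 0.804% of all genes, at a median log2 fold change of −0.79. The difference from the members was not tested.

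By locus identifier the members lay on all 12 chromosomes, with 5 (chromosome 12) to 24 (chromosome 1) on each, or 0.577% to 1.97% of the loci with a mean of at least 5 CPM. The highest share was on chromosome 11, with 16 members. Some members neighbour each other. LOC_Os08g15505 and LOC_Os08g15545 have no other locus of at least 5 CPM between them, and neither have LOC_Os09g30412 and LOC_Os09g30418. Across the 24 libraries the log2 levels of the first pair had a correlation of 0.94 and those of the second pair 0.91, given as a description since the libraries share depth and groups. Strand and reads shared between similar loci were not stated for the counting, so values of such pairs carry that uncertainty. LOC_Os01g05585 and LOC_Os01g05650, separated by 2 loci of that level, had a correlation of 0.94.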

How the data were processed

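Anthers were sequenced by the authors on the Ion Proton platform. Per the paper's methods, clean reads were mapped with MapSplice to the MSU rice genome (Nipponbare), and the deposited table holds raw read counts per locus, which the authors analysed with DESeq2. Strand use in counting is not given in the sources used here. No locus identifier of the table matched the symbol table at hand (0 of 55986), so no sequence is shown, and names come from the study's supplementary sheets. CPM were computed from column sums. Comparisons used edgeR 4.0.16 (TMM, filterByExpr, quasi-likelihood F test, Benjamini-Hochberg adjustment) in R 4.3.3, with the 4 libraries of a time point, or the 16 libraries of 08:00, 16:00, 20:00, and 00:00 for contrasts over times. DESeq2 1.42.0, other scalings and filters, a replicate block, and leaving out each library were tried. With 2 libraries a group, p-values rest on few degrees of freedom. On simulated counts for 08:00, with the same spread for every gene, 43% of 2-fold and 100% of 4-fold changes were called. Simulated 2-fold changes lie at the 2-fold limit itself, so many fall below it whatever the power. The simulated spread was also not taken from these libraries, so these shares do not measure how many changes were missed here.

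The members and the gene lists were chosen with earlier results of these data known. Named genes were the 20 of highest rule value, up to 5 called members of largest fold change in each direction of each comparison, up to 4 members of each annotation list by rule value, the 10 of highest mean CPM, the 3 on either side of the limit, and any member on the rhythm or marker lists (there was none). Others are said to be picked out after their values were seen. Some of the 20 and of the 10 were not described one by one.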

Additional observations from a re-analysis of the deposited data

Results flagged for a closer look

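A pair of members had SD and LD libraries that did not overlap in one direction at some hours and in the other direction at another, among the hours that the rule did not use. The SD minus LD difference of LOC_Os06g21710 in log2(CPM + 1) was 0.57 at 08:00, 1.19 at 16:00, and 0.60 at 00:00, against −1.44 at 20:00. That of LOC_Os01g41070 was 2.05 at 08:00, against −0.60 at 00:00. Such separation was common, at 17.9% to 45.3% of the 16484 loci for each hour and direction. How many loci separate in opposite directions at different hours was not counted. At 00:00 the unadjusted p by edgeR was 0.156 for LOC_Os06g21710 and 0.0812 for LOC_Os01g41070. LOC_Os01g41070 also reached the limit of 5 CPM through its SD libraries, as given at 08:00. The differences between hours were not tested.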

How the results depend on the processing

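Applied to TMM-scaled CPM the rule kept 95 of the 150 genes, and to genes of at least 20 CPM it kept 77. Leaving out each of the 8 libraries of 12:00 and 04:00 in turn kept 115 to 138, and 32 genes were kept under all 13 settings. Called members were 0 at 16:00, but 15 with every gene of at least 1 count, 13 with DESeq2, and 6 with all 24 libraries in one fit. Over all genes DESeq2 called 4.20% up and 2.58% down at 16:00, against 0% each way by edgeR, so this rise was not confined to the members. At 20:00 they were 3, but 5, 14, and 9 under the same settings, and at 00:00 they were 1, but 6, 12, and 12, with 3 on library totals and 0 with at least 1 CPM in every library. For light against dark in SD anthers 1 became 4 without the fold limit, 3 on library totals, 4 with every gene of at least 1 count, and 2 with DESeq2. In LD anthers 1 became 6 without the fold limit and 0 with at least 1 CPM in every library. The difference of the contrasts had 0, but 6 with every gene of at least 1 count and 2 with DESeq2, and over the 4 times 5 became 25 without the fold limit. By DESeq2 the share called over all genes also rose at 20:00 and 00:00, as given with those hours. For the remaining settings no share over all genes is given, so these counts are not read as a result about the members. The causes of these shifts were not tested. No call reversed direction.

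Leaving out each library in turn gave 6 to 17 called members at 08:00, 0 to 16 at 16:00, 3 to 85 at 20:00, and 1 to 17 at 00:00. For light against dark the median ran from −0.10 to 0.40 in SD anthers and −0.11 to 0.11 in LD anthers. It ran from −0.12 to 0.36 for their difference, and from −0.12 to 0.10 for SD against LD over the 4 times.

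Replicate numbers were not treated as pairs, and the labels do not say whether same-numbered libraries belong together. Deviations of same-numbered libraries correlated between −0.39 and 0.46 over 66 pairs of groups, with 17 over 0.1. The correlation between SD and LD libraries was 0.25 at 16:00 and 0.16 at 00:00, against −0.21 at 08:00 and −0.11 at 20:00. These values do not exclude a pairing within a time point. With the number as a replicate block, 14 members were called at 16:00 and 14 at 00:00, and the other counts stayed within 1.5 times. Shares of all genes called in the blocked fits are not given, so these counts are not read as a result about the members.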
